A study of Mus musculus with 6 samples.

Results

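De novo lipogenesis is the making of new fatty acids from acetyl-CoA in the cytosol. Its enzymes and regulators were followed here as 10 genes, Slc25a1, Acly, Acss2, Acaca, Acacb, Fasn, Me1, Thrsp, Srebf1 and Mlxipl, out of 24239 gene symbols on the array. The members were taken by gene symbol from the array annotation, and all of their 19 probes that are not controls were used, out of 55681. The mRNA levels were measured in liver of male B6C3F1 mice, a hybrid strain often used in liver toxicology, at 7 weeks of age. The control group (n = 3) was given corn oil by gavage for 5 days, and the TCE group (n = 3) was given trichloroethylene (TCE), an industrial solvent, dissolved in corn oil, in 1 daily dose of 1000 mg/kg b.w. over the same 5 days, and livers were taken shortly after the last dose. Both groups therefore shared the oil, the gavage and the free access to diet, and each mouse had an array of its own, with no pooling.

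In the liver, citrate leaves the mitochondria and is split to acetyl-CoA, which acetyl-CoA carboxylase turns to malonyl-CoA and fatty acid synthase extends to palmitate at the expense of NADPH. The pathway is known to be high after feeding and low in fasting. Insulin acts on it largely through the transcription factor SREBP-1c, a product of Srebf1, and sugars through ChREBP, the product of Mlxipl. The comparison of TCE with control mice asks which steps of this pathway differed at the mRNA level after TCE.

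Of the 10 members, Me1 was the gene that was up-regulated past the threshold, with 2.53-fold more signal in TCE mice than in control mice. Fasn, Acacb and Acaca had means that were 2.19-fold, 2.12-fold and 1.70-fold higher in TCE mice, and none of these passed the test. The other members, among them both transcription factors, had means between 0.974-fold and 1.27-fold of control. The threshold was an adjusted p of 0.05 or less by limma, over all 22731 detected probes, and a fold change of 2 or more, with the brightest detected probe standing for a gene. Of the 13284 detected genes, 1.30% were past it with higher and 0.429% with lower signal in TCE mice, beside 1 higher and 0 lower of the 10 members. With no fold limit the counts of members were the same, beside 1.80% of all detected genes higher and 0.587% lower. At an unadjusted p of 0.05, 4 of 10 members were higher, beside 12.0% of all detected genes. The groups did not overlap, with TCE higher, for 3 members (Fasn, Acaca and Me1), beside 17.1% of all detected genes, and for 0 members with TCE lower, beside 10.8%. The median log2 fold change was 0.31 over the members and 0.02 over all detected genes. The mean was higher in TCE mice for 9 of 10 members, beside 7057 of the 13284 detected genes. In bulk liver RNA, fewer cells of a type and less RNA per cell cannot be told apart.

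**Figure D1:**
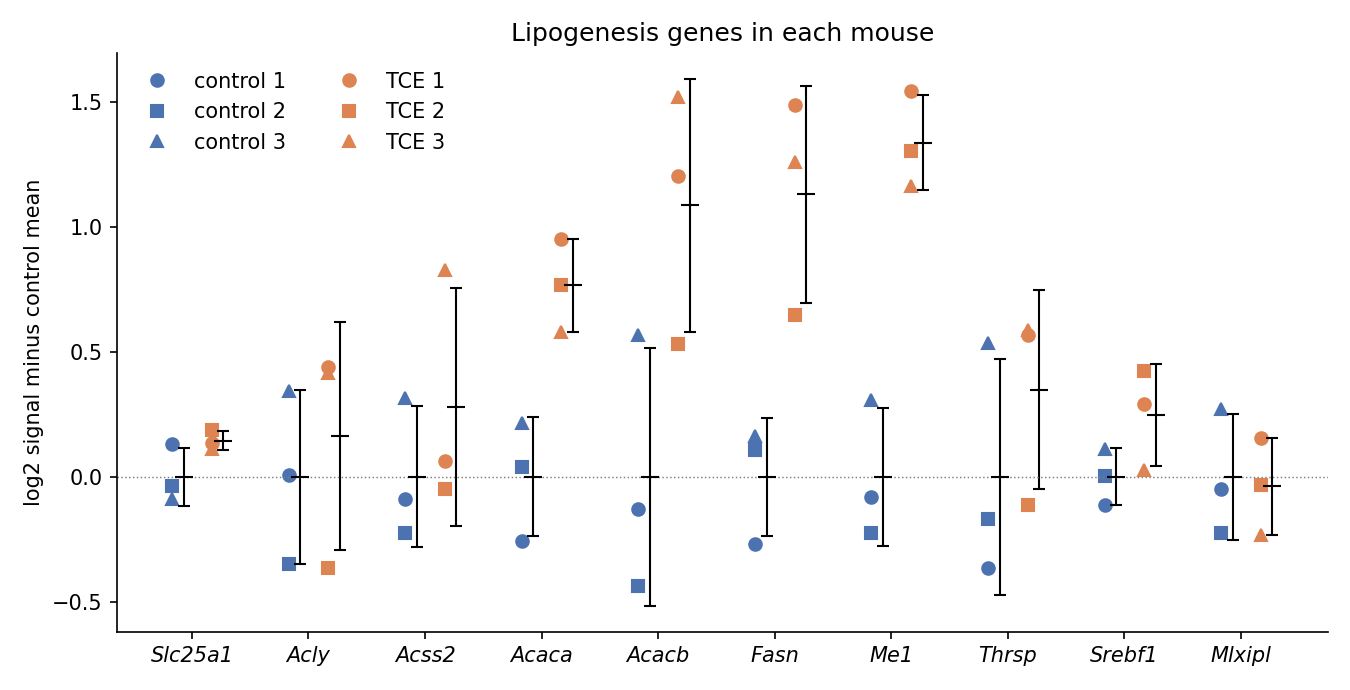
Log2 signal of the brightest probe of each member in each mouse, minus the mean of the 3 control mice (y axis), for control mice in blue and TCE mice in orange, with the replicate number by symbol and mean ± SD in black. TCE mice lie above every control mouse for Acaca, Fasn and Me1, and the groups overlap for the other 7 members.

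The promoters of Me1, Fasn and Srebf1 are given because Me1 rose and Fasn catalyses the central step, while Srebf1 encodes a factor known to bind lipogenic promoters. The sequences are those of RefSeq on GRCm38.p6, whereas the probes are placed on mm9, and the positions of the 2 builds were not mixed. Promoter windows were found for all 10 members, 14 windows in all, and the 250 bases before each start were searched on both strands. The motifs were the CCAAT box (CCAAT), the E-box (CACGTG), a sterol regulatory element (TCACNCCAC), the GC box (GGGCGG) and a part of the LXR element known from the Srebf1 promoter (GGTTACT), and capitals mark every match, on either strand. The main Me1 window (chr9:86695915-86696164, minus strand) held 3 GC boxes and none of the other motifs.
Me1: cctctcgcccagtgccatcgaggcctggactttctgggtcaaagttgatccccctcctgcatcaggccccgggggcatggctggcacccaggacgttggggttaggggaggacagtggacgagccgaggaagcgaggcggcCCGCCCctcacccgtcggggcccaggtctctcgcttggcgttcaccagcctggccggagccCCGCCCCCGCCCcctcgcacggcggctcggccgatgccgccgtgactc
In the Srebf1 window that starts farthest downstream of its 3 (chr11:60210472-60210721, minus strand), 2 partial LXR elements, 2 GC boxes and 1 CCAAT box were found. SREBP-1c is known to be transcribed from a start downstream of that of SREBP-1a.
Srebf1: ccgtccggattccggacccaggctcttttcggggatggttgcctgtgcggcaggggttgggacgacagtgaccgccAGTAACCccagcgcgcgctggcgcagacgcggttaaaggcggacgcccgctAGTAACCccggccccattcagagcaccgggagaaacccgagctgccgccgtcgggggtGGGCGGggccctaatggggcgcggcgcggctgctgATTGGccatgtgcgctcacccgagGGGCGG
The Fasn window held 3 CCAAT boxes and 1 partial LXR element, and 30 bases are shown around the overlapping pair of CCAAT boxes (chr11:120824591-120824620) and around the partial LXR element (chr11:120824746-120824775), both on the minus strand.
Fasn, CCAAT boxes: ggcctcggtgtCCAATTGGtttcgatgtgg
Fasn, partial LXR element: cgatgaccggtAGTAACCccgcctgaggcg

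A CCAAT box was present in windows of 8 of 10 members, and 33.8% of all 32851 windows in the table held one. GC boxes were found for 6 members, beside 32.7% of all windows. E-boxes stood before Mlxipl and Slc25a1, beside 6.02% of windows, and the sterol regulatory element before a start of Mlxipl, beside 1.05%. The partial LXR element was seen before Fasn and Srebf1, beside 1.88%. Members with several starts had several windows, so that their shares are not on the same footing as that of single windows. The windows of Acaca and Acacb lay 65803 and 19197 bases inside the RefSeq span of these genes. That of Fasn lay 619 bases inside its span, and those of Srebf1 lay 1605, 3559 and 13715 bases inside. Other starts of these genes were thus not searched. A match is a run of letters and was not tested for binding.

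The citrate carrier and the enzymes that supply acetyl-CoA did not pass the test. Slc25a1, the mitochondrial carrier that exports citrate, was probed at chr16:17925661-17925720. Its log2 signal was 13.50, 13.34 and 13.28 in control mice and 13.51, 13.56 and 13.48 in TCE mice, a narrow spread in both groups, and TCE mouse 3 was below control mouse 1. The log2 fold change was 0.14 ± 0.11 (SE, n = 3 per group; limma adjusted p = 0.558), with a 95% interval of -0.13 to 0.42.

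Acly cleaves cytosolic citrate to acetyl-CoA and oxaloacetate. Its brighter probe (chr11:100337674-100337733) was at 15.16, 14.81 and 15.50 in control mice and at 15.60, 14.79 and 15.57 in TCE mice on the log2 scale. TCE mouse 2 was the lowest of all 6 mice, and the other TCE mice were above all control mice. The log2 fold change was 0.16 ± 0.28 (SE; limma adjusted p = 0.805), and at the dimmer probe it was -0.01 ± 0.34. The interval at the brighter probe, -0.51 to 0.84, holds changes of either sign.

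Acss2 makes acetyl-CoA from acetate. Log2 signals at the brighter of its 2 probes (chr2:155388416-155388475) were 13.25, 13.11 and 13.66 in control mice and 13.40, 13.29 and 14.17 in TCE mice. TCE mouse 3 was alone above the control range. The log2 fold changes were 0.28 ± 0.27 and 0.26 ± 0.26 (SE) at the probes, with limma adjusted p of 0.636 and 0.652.

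Acetyl-CoA carboxylase, which forms malonyl-CoA, had higher means in TCE mice for both of its genes. Acaca encodes the cytosolic form that feeds fatty acid synthesis. At its brightest probe (chr11:84215093-84215152) the log2 signal was 13.08, 13.38 and 13.55 in control mice and 14.29, 14.10 and 13.92 in TCE mice. Every TCE mouse was above every control mouse, and the log2 fold change was 0.77 ± 0.17 (SE; limma adjusted p = 0.092; 95% interval 0.36 to 1.18). A second bright probe, which by the scanner files shares 59 of its 60 bases with the first, gave 0.68 ± 0.22. The deposited table places that probe on chromosome 12, at 10166955 to 10167014, and the scanner files place it on chromosome 11. The 2 dim probes gave 0.77 ± 0.19, with no overlap of the groups, and 0.57 ± 0.36, with overlap, so that all 4 probes had the higher mean in TCE mice.

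Acacb encodes the form at the mitochondrial outer membrane, whose malonyl-CoA is known to limit the entry of fatty acids into oxidation. Its brighter probe (chr5:114700702-114700761) was at 12.22, 11.92 and 12.92 in control mice and at 13.56, 12.89 and 13.87 in TCE mice. Control mouse 3 and TCE mouse 2 overlapped by a small margin. The log2 fold change was 1.09 ± 0.34 (SE; limma adjusted p = 0.179), with SDs of 0.52 among the control and 0.51 among the TCE mice. The dimmer probe gave 1.21 ± 0.32 (limma adjusted p = 0.125) with no overlap between the groups.

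Fasn, the fatty acid synthase, joins malonyl-CoA units to palmitate and was measured by 1 probe (chr11:120667666-120667725). Log2 signals were 10.63, 11.01 and 11.07 in control mice and 12.39, 11.55 and 12.16 in TCE mice. The groups did not overlap, and TCE mouse 2 was the closest to the control mice. The log2 fold change was 1.13 ± 0.25 (SE; 95% interval 0.54 to 1.72), and the limma adjusted p of 0.0877 missed the threshold. Without TCE mouse 2 the change was 1.37 with a limma adjusted p of 0.0491, which is past the threshold, and without each of the other mice the adjusted p was between 0.175 and 0.227.

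Me1, the cytosolic malic enzyme, turns malate to pyruvate and yields NADPH for the synthase. It was up-regulated at all 3 of its probes. The brightest (chr9:86475077-86475136) was at 13.65, 13.50 and 14.03 in control mice and at 15.27, 15.03 and 14.89 in TCE mice. The lowest TCE mouse stood clear of the highest control mouse, and the log2 fold change was 1.34 ± 0.18 (SE; 95% interval 0.90 to 1.77; limma adjusted p = 0.0261). The other probes, at chr9:86475215-86475274 and chr9:86480571-86480630, gave 1.40 ± 0.20 (limma adjusted p = 0.028) and 1.73 ± 0.18 (limma adjusted p = 0.0114). At the last of these the control mice were at 12.86, 12.76 and 13.34 and the TCE mice at 14.86, 14.62 and 14.68.

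The direction and size of the Me1 change depended little on single mice, but its call did. At the brightest probe the log2 fold change was between 1.23 and 1.48 when 1 mouse was left out. The limma adjusted p was 0.0411 without control mouse 3. Without control mouse 1, control mouse 2, TCE mouse 1, TCE mouse 2 or TCE mouse 3 it was 0.0956, 0.103, 0.0943, 0.0718 and 0.0575, and the call was lost. The array of control mouse 1 lay on a separate slide that was scanned separately, while the other 5 arrays shared a slide. The fit without control mouse 1 is thus the comparison within the slide that holds both groups, and it gave log2 fold changes of 1.31 for Me1, 1.00 for Fasn and 0.64 for Acaca. With slide as a block the adjusted p of Me1 was 0.0914.

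**Figure D2:**
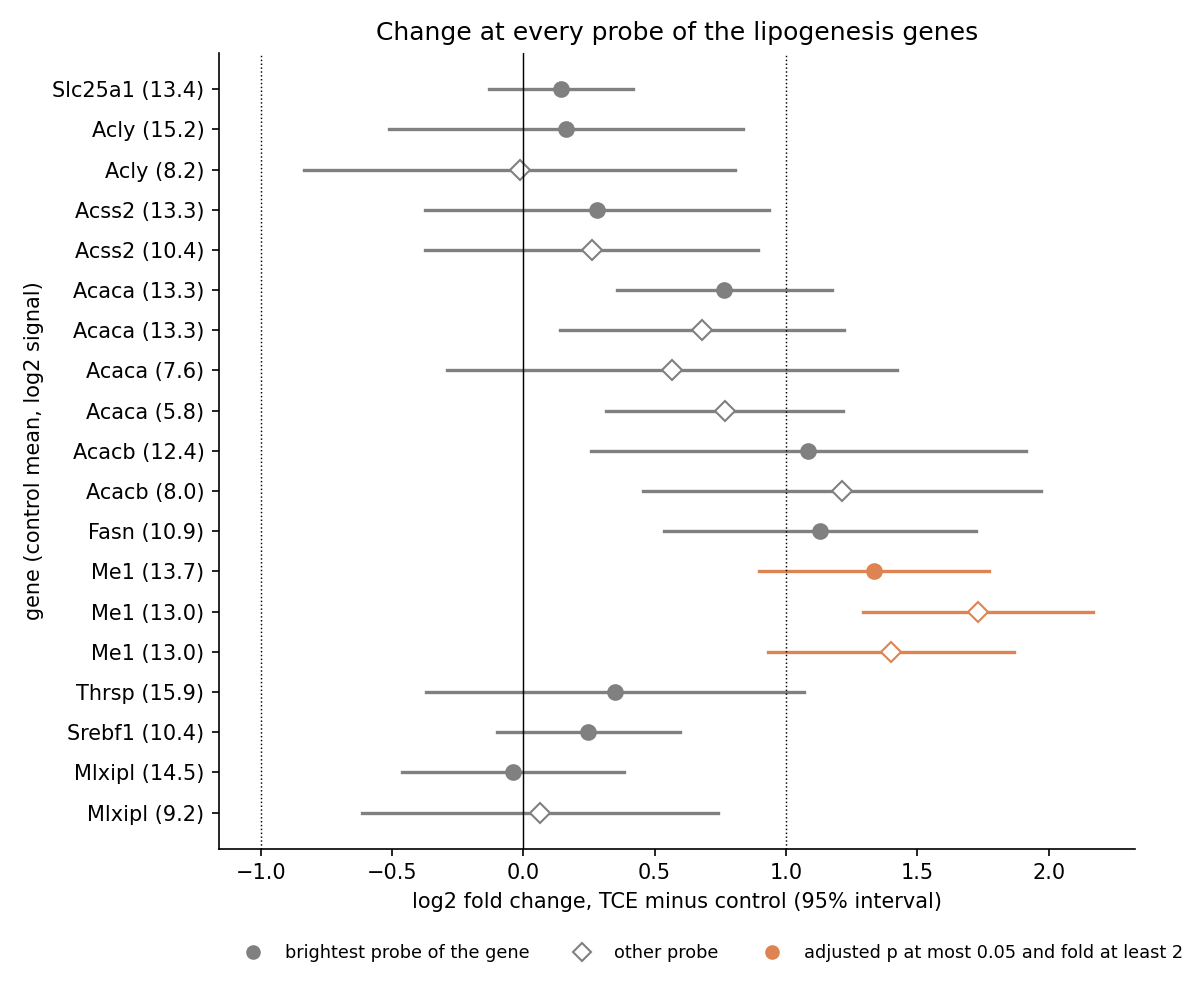
Log2 fold change of TCE against control mice (x axis) with its 95% interval from limma at all 19 probes of the members, each with its mean log2 signal in control mice (n = 3) in brackets. Filled circles are the brightest probe of a gene, and orange marks probes past the threshold, which are the 3 probes of Me1. The probes of Acaca, Acacb and Fasn lie to the right of 0, with the interval of 1 Acaca probe reaching below 0.

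Thrsp (Spot 14), a nuclear protein that responds to thyroid hormone and carbohydrate and acts with lipogenic enzymes, did not pass the test. The log2 signal (chr7:104561649-104561708) was 15.51, 15.71 and 16.41 in control mice and 16.45, 15.77 and 16.47 in TCE mice. Control mouse 3 was close to the 2 high TCE mice, and TCE mouse 2 was within the control range. The log2 fold change was 0.35 ± 0.30 (SE; limma adjusted p = 0.592).

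Srebf1 was measured by 1 probe (chr11:60012664-60012723), and its SREBP-1a and SREBP-1c transcripts were not told apart here. Control mice were at 10.31, 10.43 and 10.54 and TCE mice at 10.72, 10.85 and 10.45 on the log2 scale, with TCE mouse 3 inside the control range. The log2 fold change was 0.25 ± 0.14 (SE; limma adjusted p = 0.432), and its 95% interval, -0.10 to 0.60, reaches to 1.51-fold. The SREBP-1c protein is also known to be cleaved before it acts on genes, which an mRNA array does not measure.

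Mlxipl, the gene of ChREBP, had the lower mean in TCE mice, a sign that turned with normexp background correction, with array weights, with the mean of its probes and without TCE mouse 3 or control mouse 3. The brighter probe (chr5:135613705-135613764) was at 14.46, 14.28 and 14.78 in control mice and at 14.66, 14.47 and 14.27 in TCE mice. The values of the groups were mixed. The difference of the means was -0.04 ± 0.17 on the log2 scale (SE; limma adjusted p = 0.935; 95% interval -0.46 to 0.38). The dimmer probe, which carries the Mlxipl symbol in the deposited table alone, gave 0.06 ± 0.28.

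The log2 fold changes of 8 members, all but Srebf1 and Mlxipl, were set against that of Srebf1 within the same mouse. The difference from Srebf1 was 1.09 ± 0.17 (SE) for Me1, 0.88 ± 0.34 for Fasn and 0.52 ± 0.12 for Acaca on the log2 scale, and for these 3 genes the groups did not overlap. The same 3 genes also separated the groups by their own signal. The share of all detected genes that separate against Srebf1 was not taken. The exact permutation test (two-sided) gave p = 0.1 for each of the 3 genes, and 0.267 after Benjamini-Hochberg adjustment over the 8 comparisons. As 0.1 is the smallest p that 3 against 3 mice allow, no comparison could reach the threshold for an adjusted p. The test therefore cannot decide whether the change of a member differed from that of Srebf1. For Acacb the difference was 0.84 ± 0.48 (exact p = 0.2). For Acly, Acss2, Thrsp and Slc25a1 it was between -0.10 and 0.10, with exact p of 0.6 or more.

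Within the control group, control mouse 3 had the highest signal for 9 of 10 members. Within the TCE group, TCE mouse 2 was the lowest for 5 members and TCE mouse 3 for the other 5. The mean over members, relative to the control mean, was -0.12, -0.15 and 0.27 in the control mice and 0.68, 0.33 and 0.63 in the TCE mice on the log2 scale. TCE mouse 1 was above all control mice for 8 members, TCE mouse 2 for 5 and TCE mouse 3 for 7. The matching counts over all detected genes were not taken, so these counts cannot be called particular to the members.

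The profile of Fasn over the 6 mice was compared with that of 13278 other detected genes by the root-mean-square difference of log2 signals centred on each gene's mean. The nearest outside the members were Klk1b26, Prmt1, Pdzk1ip1, Atp10d and Mcm6, with differences of 0.08, 0.13, 0.14, 0.17 and 0.17. Of these, Pdzk1ip1 (log2 fold change 1.24, limma adjusted p = 0.0374) and Atp10d (1.02, 0.0314) were past the threshold, beside 1.30% of all detected genes with higher signal in TCE mice. The measure includes the difference between the groups, so genes near Fasn share its change by construction. Their calls and ranks are thus no separate result. Among the members, Me1, Acaca and Acacb were nearest to Fasn, at ranks 83, 90 and 120, with differences of 0.30, 0.31 and 0.33, and Mlxipl was farthest at 0.66. These ranks rest on 6 mice and describe these arrays.

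The genes around the pathway were taken as 8 lists with 87 detected genes. Of these, 5 were past the threshold with higher and 3 with lower signal in TCE mice, beside 1.30% and 0.429% of all detected genes. The genes downstream of palmitate, which desaturate, elongate and store it, had the largest median of the 8 lists, a log2 fold change of 0.81 over 12 detected genes. Several of them are known as SREBP-1c targets, but the list is not limited to such targets. Of the 12 genes, 4 were up-regulated past the threshold and 0 down-regulated, beside 1.30% and 0.429% of all detected genes. Mogat1 and Pnpla3 passed the detection filter through the TCE arrays alone, where their signal was high. Mogat1, a monoacylglycerol acyltransferase, rose by 3.86 ± 0.15 (SE; limma adjusted p = 0.000766) from a mean log2 signal of 5.12 to 8.99, with 2 of 3 control arrays well above background, so that the control level is imprecise. Scd1, the stearoyl-CoA desaturase, was at 15.43, 15.32 and 15.12 in control mice and at 17.21, 16.82 and 17.18 in TCE mice, so that it rose by 1.78 ± 0.16 (limma adjusted p = 0.00615). Fads2, the delta-6 desaturase, rose by 1.35 ± 0.21 (limma adjusted p = 0.0374). Pnpla3, a lipid droplet protein, was not well above background on the control arrays, and its signal was at least 4.44-fold higher in TCE mice (limma adjusted p = 0.0252).

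Cholesterol synthesis shares acetyl-CoA with lipogenesis and is governed largely by SREBP-2. Of its 21 genes, all detected, 18 had the lower mean in TCE mice, beside 6227 of all 13284 detected genes. The median log2 fold change was -0.46, beside 0.02 over all detected genes. Past the threshold were 3 down-regulated and 0 up-regulated genes, beside 0.429% and 1.30% of all detected genes. Mvd, mevalonate diphosphate decarboxylase, fell by 1.59 ± 0.19 on the log2 scale (SE; limma adjusted p = 0.0161). Sc4mol, the sterol C4-methyl oxidase, fell by 1.41 ± 0.18 (limma adjusted p = 0.0228), and Sqle, squalene epoxidase, fell by 1.38 ± 0.19 (limma adjusted p = 0.0282). For each of these 3 genes all TCE mice were below all control mice. The groups did not overlap, with TCE lower, for 10 of the 21 genes, beside 10.8% of all detected genes. The count past the threshold fell to 0 without control mouse 3, to 1 without control mouse 2 or any 1 of the TCE mice, and to 2 without control mouse 1. It was also 0 with no filter on dim probes, with the replicate block and by the methods' t-test after Benjamini-Hochberg adjustment, and 2 with slide as a block.

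**Figure D3:**
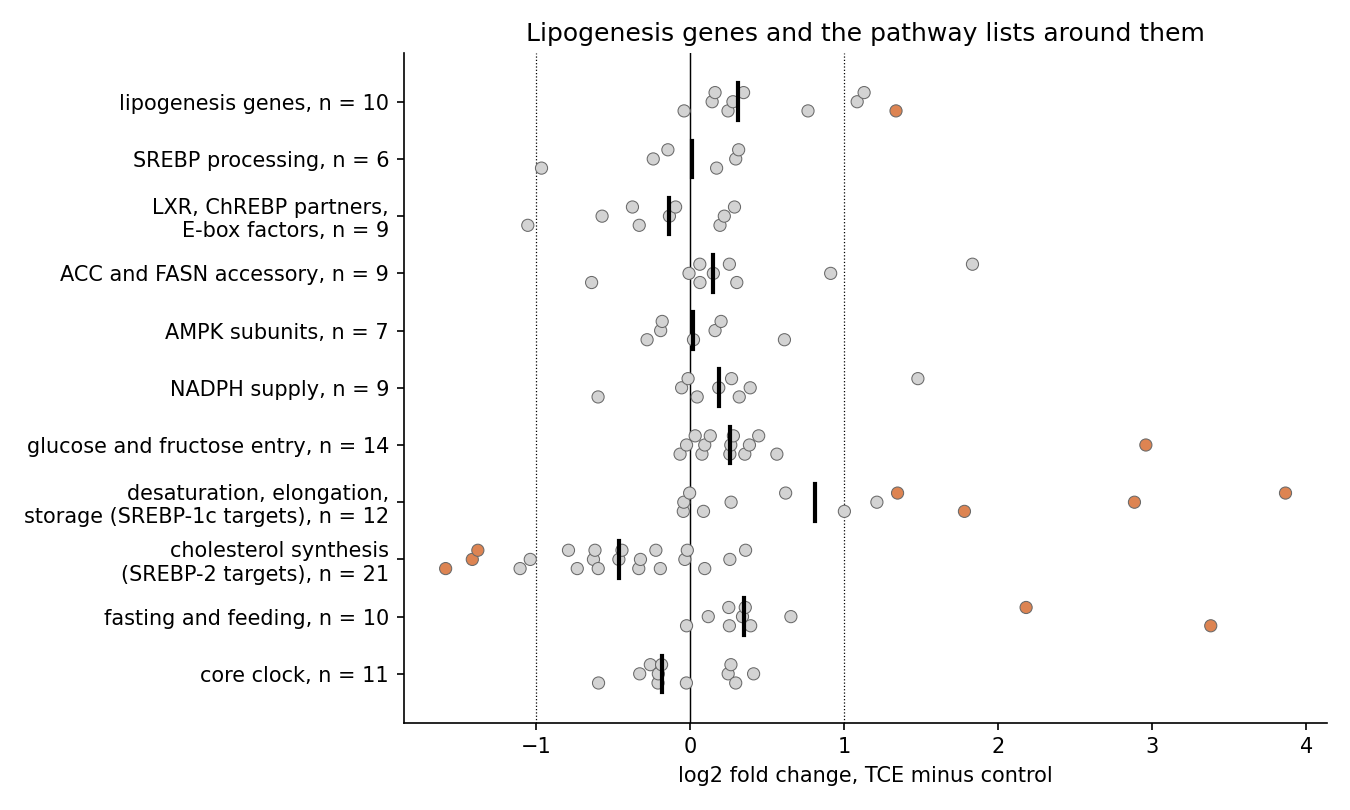
Log2 fold change of TCE against control mice (x axis) for the members and for each detected gene of the lists around them, 1 point per gene, with the median of each list as a black bar and genes past the threshold in orange. The median is 0.31 for the members, 0.81 for the desaturation, elongation and storage list and -0.46 for cholesterol synthesis.

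Genes of glucose and fructose entry had a median log2 fold change of 0.26 over 14 detected genes. Past the threshold with higher signal was 1 gene, beside 1.30% of all detected genes. It was Pdk4, a kinase that turns off pyruvate dehydrogenase and is known to rise in fasting, at 7.47, 7.15 and 7.17 in control mice and 10.51, 10.52 and 9.63 in TCE mice (log2 fold change 2.96 ± 0.27; limma adjusted p = 0.00657). Among the other sources of NADPH, 0 of 9 detected genes passed. G6pdx, the entry enzyme of the pentose phosphate route, gave 1.48 ± 0.31 (limma adjusted p = 0.0791) with no overlap of the groups, and Pgls gave -0.60 ± 0.19 (0.184).

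No gene of the remaining lists of the pathway passed. In the list of SREBP processing (6 genes, median 0.02), Insig1, which holds SREBP in the endoplasmic reticulum and is itself an SREBP target, gave -0.96 ± 0.23 (log2 fold change ± SE; limma adjusted p = 0.102) and Mbtps1, a protease that cleaves SREBP, gave -0.24 ± 0.12 (0.357). Among LXR, ChREBP partners and E-box factors (9 genes, median -0.13), Usf2 gave -0.37 ± 0.16 (limma adjusted p = 0.28) and Rxrb 0.29 ± 0.14 (0.348). The accessory genes of carboxylase and synthase (9 genes, median 0.15) had the smallest p at Acss3 with 1.83 ± 0.36 (limma adjusted p = 0.0664) and Acss1 with 0.91 ± 0.33 (0.231), both mitochondrial acyl-CoA synthetases with 2 of 3 control arrays well above background. For the subunits of AMPK and its kinase (7 genes, median 0.02), the kinase that phosphorylates acetyl-CoA carboxylase, Prkab2 gave 0.61 ± 0.24 (limma adjusted p = 0.261) and Prkag2 -0.28 ± 0.14 (0.379). At an unadjusted p of 0.05, 3 of the 31 detected genes of these 4 lists were higher in TCE mice and 1 was lower, beside 12.0% and 7.11% of all detected genes.

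Lipogenesis follows feeding and the time of day. In the list of fasting and feeding (10 genes, median 0.35), 2 were up-regulated past the threshold, beside 1.30% of all detected genes. Fgf21, a hormone of the fasted liver, rose by 3.38 ± 0.36 on the log2 scale (limma adjusted p = 0.0115) and Igfbp1, which insulin is known to repress, by 2.18 ± 0.32 (limma adjusted p = 0.0301). No other gene of this list passed in either direction. Among 11 detected genes of the core clock (median -0.18), 0 passed by limma and 0 had an unadjusted p of 0.05 or less, with Nr1d2, a nuclear receptor of the clock, at 0.27 ± 0.20 (adjusted p = 0.54). The part of food intake in the values of the members was not tested.

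Several members are also abundant in fat, but adipocyte markers were near the floor. Of 6 adipocyte markers 0 were detected, and 4 of them (Adipoq, Lep, Plin1 and Adig) were well above background on no array. The 8 hepatocyte markers were all detected, with a median log2 fold change of -0.17 and a summed log2 signal of 20.64 to 20.67 in control mice and 20.45 to 20.62 in TCE mice, with no overlap and TCE lower. The 6 Kupffer cell markers summed to 14.03 to 14.20 and 13.92 to 14.29, and the 6 markers of sinusoidal endothelium to 14.49 to 14.54 and 13.64 to 14.61. In stellate cells, 4 of 5 markers were detected and summed to 12.38 to 12.63 in control mice and 12.08 to 12.26 in TCE mice, with no overlap. Bile duct markers (3 of 5 detected) summed to 8.73 to 9.17 and 8.48 to 8.91, and lymphocyte markers (3 of 5) to 10.85 to 10.91 and 10.36 to 10.79, the latter with no overlap. Of the muscle markers, 4 of 5 were above background on no array. Myh6 passed the detection filter through the control arrays alone, where its signal was higher. Its signal was at least 2.26-fold lower in TCE mice (limma adjusted p = 0.0413). All 5 pancreatic markers were above background on no array. No other marker passed the test, and the part of these cell types in the members' values was not tested.

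All 19 probes of the members were well above background on all 6 arrays, so that no member rests on a limit of detection. Across arrays, 23538 to 24968 probes were well above background and 0 spots were saturated.

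**Figure D4:**
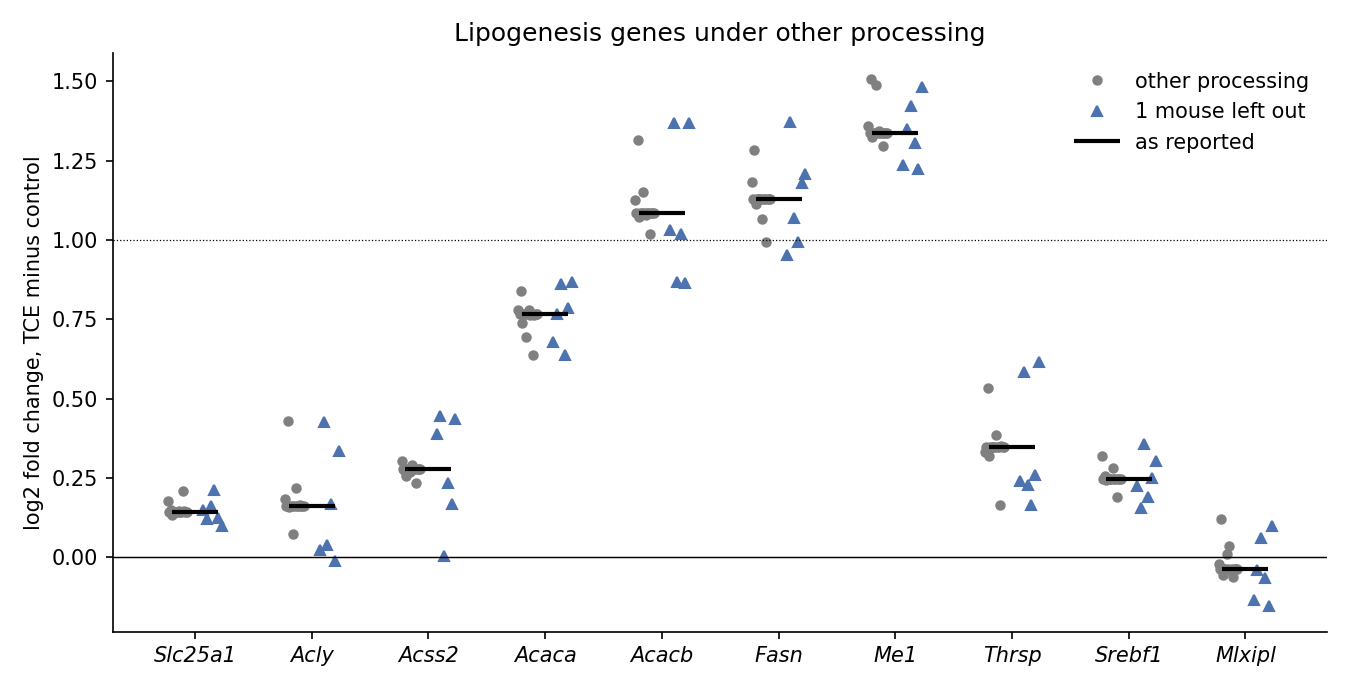
Log2 fold change of TCE against control mice (y axis) for each member as reported at its brightest probe (black bar), under each other way of processing (grey) and with 1 mouse left out (blue). Me1 stays between 1.23 and 1.51, Fasn between 0.95 and 1.37, and Acly and Mlxipl have values on both sides of 0.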

How the data were processed

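Liver RNA of 3 control and 3 TCE mice was labeled with Cy3, each on an array of its own. The authors scanned the arrays and used Agilent Feature Extraction 10.7.1.1, whose deposited output holds the background-subtracted intensity of each spot. A second deposited table holds group means only, as raw intensity and as quantile-normalized log2 values, and places the probes on mm9. Its detection flags for single arrays were not used.

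Here log2 of the processed intensity was taken without a pseudocount. Spots with an outlier flag (123 to 189 per array) were set to missing, and the spots of each probe were averaged before quantile normalization. The group means lay within 0.01 of the deposited log2 means for 99.95% of the probes. A probe was detected when well above background on all 3 arrays of either group. Detected probes were tested by limma (version 3.58.1, R version 4.3.3) with lmFit and eBayes, two-sided, on group alone, with Benjamini-Hochberg adjustment. The data.table package (version 1.17.8) read the files. The brightest detected probe stood for a gene. The procedure was tested on simulated data. The number of arrays limits the precision.

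The members and lists were chosen with earlier results of these data known. Named are all members, the genes of each list past the threshold (at most 4, the largest changes), the 2 with the smallest p where none passed, the 5 genes nearest to Fasn, and the markers by list, apart from 1 gene that is not reported here. Alternatives covered the scaling, the background (normexp, offset 50), the filter on dim probes, outlier spots, the deposited group means, slide or replicate number as a block, weights for arrays, the variance model, the methods' t-test, a fold limit of 1.5, the mean of a gene's probes, and each mouse left out. Proteins and the other doses were not analysed here.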

Additional observations from a re-analysis of the deposited data

How the results depend on the processing

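The median log2 fold change of the members stayed within 1 SD of the spread between mice (0.215) under every alternative run, between 0.222 and 0.525. The number of members past the threshold, 1 as reported, was 2 with array weights and by the methods' t-test without adjustment, both times with Fasn beside Me1. It was 0 with no filter on dim probes, with slide as a block and by the methods' t-test after Benjamini-Hochberg adjustment, and 0 to 1 with 1 mouse left out. At an adjusted p of 0.05 with no fold limit, the count was 3 with array weights and by the unadjusted t-test, 0 with no filter, with slide as a block and by the adjusted t-test, and 0 to 1 with 1 mouse left out. Of the genes in the pathway lists, 8 were past the threshold as reported, 14 with array weights, 13 by the unadjusted t-test and 5 with slide as a block. The count was 6 with only probes above background on all 6 arrays, 2 with no filter, 1 by the adjusted t-test and 3 to 7 with 1 mouse left out. The count of list genes was 3 without control mouse 3, 4 without control mouse 2, TCE mouse 1 or TCE mouse 3, and 5 without control mouse 1.

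With the replicate block, 0 members were past the threshold, 0 were at an adjusted p of 0.05 with any fold and 2 genes of the pathway lists passed, while the log2 fold change of Me1 was 1.34 with an adjusted p of 0.126. The replicate numbers do not pair the mice by any label, and the deviations of same-numbered mice from their group means had correlations of 0.09, 0.007 and -0.092. Of the 3 control mice, 1 correlated best with the TCE mouse of its own number.

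Among all detected genes, 230 were past the threshold as reported, 45 with the replicate block, 66 with no filter on dim probes, 128 with slide as a block, 378 with array weights, 411 by the unadjusted t-test, 20 by the adjusted t-test and 83 to 164 with 1 mouse left out. The median shift of all detected probes was 0.02 with quantile, 0.04 with 75th percentile and -0.01 with cyclic loess scaling. The mean change of Me1, Acaca, Acacb, Fasn, Acss2, Thrsp, Srebf1 and Slc25a1 was above 0 in all 21 alternatives, that of Acly in 20 and that of Mlxipl in 5. The cause of the lost calls was not tested. With 3 mice per group, the 95% intervals of Acly, Acss2 and Thrsp reached from -0.51, -0.38 and -0.37 to 0.84, 0.93 and 1.07, so that changes within them are not excluded.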
